A study of Mus musculus with 20 samples.

Results

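The messenger RNA of 10 genes of the endoplasmic reticulum (ER) stress response was followed in the neocortex of 20 mice: Hspa5, Hsp90b1, Calr, Canx, Dnajc3, Pdia4, Xbp1, Atf4, Atf6 and Ddit3. Their features were taken from the array by name: every Affymetrix probe set, a group of short oligonucleotides that reports one stretch of a transcript, whose platform annotation names 1 of these genes and no other. That gave 30 probe sets among the 45037 on the array that are not manufacturer's controls. Each gene had 2 to 5 of them, which are numbered here from the brightest down. Of the 30, 26 lay among the brightest 60% of probe sets over all arrays and were tested. The other 4, the dimmest for Atf4, Atf6, Ddit3 and Pdia4, were not. Values are linear signals as deposited, and differences are on the scale of log2(signal + 16), which understates changes of dim probe sets.

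All mice were male B6C3F1 animals, labelled as the B6/C3H F1 hybrid, and lived in single housing. They formed 4 groups of 5, with 1 array per mouse. Young controls were 5 months old and old controls 30 months old, both on the control diet. A further group of 30 months had received α-tocopherol at 1000 mg/kg of diet since 15 months of age. The last group, of the same age and called the mixture group here, had received α- and γ-tocopherol at 500 mg/kg each over the same period. Both tocopherols are forms of vitamin E, a lipid-soluble antioxidant, and the labels do not say how much of it the control diet held. The series asks which neocortical transcripts differ with age and with this supplementation. RNA came from bulk neocortex, so for any gene fewer cells of a type and less RNA per cell cannot be told apart.

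Secreted and membrane proteins fold in the ER with the help of chaperones, lectins and disulfide isomerases. When unfolded proteins build up there, membrane sensors start the unfolded protein response: IRE1 splices the Xbp1 transcript, PERK slows translation and thereby favours the translation of ATF4, and ATF6 is cut free to act in the nucleus. The resulting transcription factors raise the chaperones, the machinery that removes misfolded proteins and, when stress lasts, the pro-apoptotic factor CHOP, which Ddit3 encodes. Neurons carry a heavy load of membrane proteins, and the response is widely studied in the ageing brain. The array measures transcripts, so neither the cutting of ATF6 nor the translation of ATF4 is seen, and no signal of Xbp1 is assigned here to its spliced or unspliced form.

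The promoters of these genes are shown because several share the ER stress response element, the motif through which ATF6 and XBP1, with the CCAAT-binding factor NF-Y, are known to act. Promoter sequences came from RefSeq on GRCm38.p6 and span 250 bases before to 50 after the gene start; 9 of the 10 genes were matched. The element was searched on both strands as CCAAT, then 9 bases of any kind, then CCACG, so it contains a CCAAT box by its definition. It lay in 5 of the 9 promoters, while 0.119% of all 32851 promoters in that table hold it. Several of these genes were known beforehand to share the element, so these shares are a description and no test of enrichment. The matches are in capitals, each line is read 5′ to 3′ on the strand of the gene, and a match that begins with CGTGG is the element on the opposite strand.
Hspa5, chr2:34772000-34772068, plus strand: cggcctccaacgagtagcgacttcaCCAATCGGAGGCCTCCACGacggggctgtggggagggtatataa
Hsp90b1, chr10:86705508-86705681, minus strand: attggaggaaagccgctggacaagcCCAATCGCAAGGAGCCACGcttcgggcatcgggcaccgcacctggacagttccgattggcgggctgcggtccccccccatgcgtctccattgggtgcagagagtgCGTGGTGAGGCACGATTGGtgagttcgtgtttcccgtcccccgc
Calr, chr8:84847050-84847118, minus strand: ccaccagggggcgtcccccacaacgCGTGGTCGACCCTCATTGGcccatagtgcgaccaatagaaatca
Canx, chr11:50325775-50325843, minus strand: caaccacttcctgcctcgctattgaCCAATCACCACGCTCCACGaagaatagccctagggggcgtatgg
Dnajc3, chr14:118937802-118937870, plus strand: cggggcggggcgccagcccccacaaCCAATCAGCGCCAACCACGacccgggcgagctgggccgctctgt

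The match nearest the gene start was that of Hspa5, with 46 bases between them, and Hsp90b1 held 2 matches on opposite strands. These letters were not found in the windows of Xbp1, Atf4, Ddit3 and Pdia4. The shorter CCAAT box, on either strand, lay in 8 of the 9 promoters and in 37.4% of all promoters. The letters TGACGTG, a core of the unfolded protein response element, lay in that of Hspa5 alone among the 9 and in 2.01% of all promoters. The second ER stress response element, ATTGG and CCACG with any base between them, lay in none of the 9 and in 0.0365% of all. A match is a description of the letters and not of binding.

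Of the whole array, 27022 probe sets were tested. The median signal of an array was 292 ± 12.4 (SD, n = 5) in old controls against 321 ± 6.24 in young controls, 296 ± 15.3 with α-tocopherol and 308 ± 17 with the mixture. The ratio of the β-actin control probe sets at the 3′ and 5′ ends, which rises as RNA is shortened, was 1.52 ± 0.135 in young controls, 2.04 ± 0.339 in old controls, 1.67 ± 0.391 with α-tocopherol and 1.43 ± 0.145 with the mixture. Every mixture array lay below every old control array (exact permutation test, two-sided, p = 0.00794, adjusted p = 0.0238 over 12 comparisons of array measures). The mean signal of 18S ribosomal RNA was 394 ± 98 in young controls, 887 ± 155 in old controls, 684 ± 337 with α-tocopherol and 507 ± 86 with the mixture. It separated every old control array from every young and every mixture array, and the median signal every old from every young one, with the same p-values. For the β-actin ratio of old against young controls p was 0.0238 and the adjusted p 0.0571 in the exact permutation test. Summed signals of cell markers ran from 15390 to 16600 for microglia in young controls and from 25350 to 28910 in old controls, for all 7 of 7 genes. For astrocytes, with 6 of 6 genes, they ran from 39270 to 41670 and from 56370 to 63110. For oligodendrocytes, with 5 of 6 genes, they ran from 56410 to 68320 in young controls, 75110 to 92530 in old controls and 61360 to 74000 with the mixture. For neurons, with 7 of 8 genes, the same groups gave 102700 to 109400, 117300 to 134900 and 98470 to 107000. By probe set, 5 of 14 neuron ones were higher and 1 lower with age (adjusted p under 0.05 in limma). After quantile or cyclic loess normalization it was 2 and 2. For the mixture against old controls 1 was higher and 5 lower, and 0 and 1 after either normalization. In each of these lists the sums of old controls lay above those of all young controls, and for oligodendrocytes and neurons above those of all mixture mice too. Such a sum weighs the brightest genes most. Of 17 oligodendrocyte probe sets, 5 were lower with the mixture than in old controls (adjusted p under 0.05 in limma), all of Mbp. Another 1 was higher, and the median log2 difference of that list was 0.07. All neuronal, glial and microglial markers that were analysed were above the filter in the tissue labelled neocortex. Choroid plexus markers, 8 of 8 genes, ran from 10840 to 52590 within the old controls, against 28910 to 42770 in young controls. The part of these measures in the results on the 10 genes was not tested, except that the tests were also run with the β-actin ratio in the model.

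Between old and young controls, 5 of the 26 probe sets passed the threshold of an adjusted p of 0.05 (limma, Benjamini-Hochberg over all 27022), and they belonged to 4 genes. Canx was higher in old mice on 2 probe sets, whereas Hspa5, Xbp1 and Atf4 were each lower on 1. Over the whole array 18.9% of probe sets passed, 9.33% higher and 9.54% lower, so that 19.2% of the 26 is near the share of all. The unadjusted p was under 0.05 for 11 of the 26, against 33.5% of all. Between the mixture group and old controls, 4 of the 26 passed, against 3.59% of all probe sets: Dnajc3 was higher on 2 and Xbp1 on 1, and Calr was lower on 1. Of all probe sets, 1.3% were higher and 2.29% lower with the mixture. Here 14 of the 26 had an unadjusted p under 0.05, against 20.1% of all. Between α-tocopherol and old controls none of the 26 passed, and none of the 27022 did. An unadjusted p under 0.05 was found for 4 of the 26, against 5.45% of all. Between the mixture and α-tocopherol again none passed, of the 26 or of all, and 6 of the 26 had an unadjusted p under 0.05, against 8.39% of all. Of the 26, 24 lie among the brightest 40% of probe sets. When only that 40% was tested, 23.7% of all passed with age and 7.22% for the mixture against old controls. Of the 24, 2 were then higher and 3 lower with age, and 2 higher and 4 lower with the mixture. Old controls enter both the age comparison and the supplement comparisons, so a high or low old control mouse moves them in opposite directions.

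**Figure D1:**
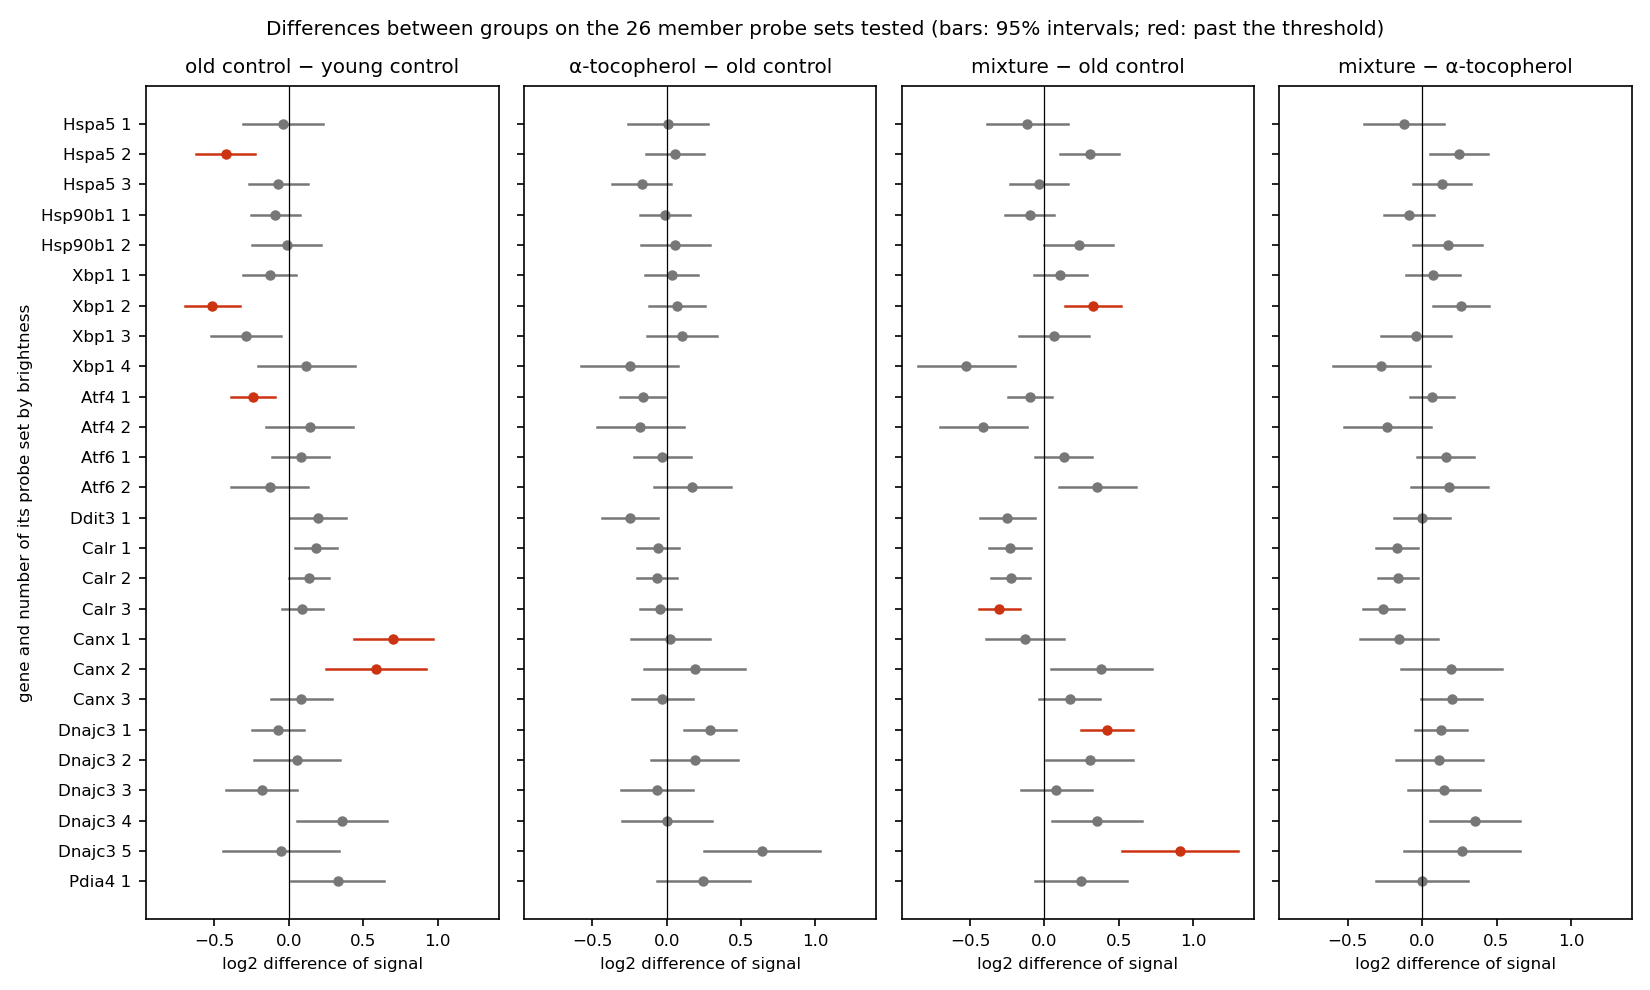
Log2 difference of signal (x axes) with its 95% interval for the 26 tested probe sets (y axis, gene and number by brightness) in the 4 comparisons, with those past the threshold in red. Red points stand at 5 probe sets in the age panel and 4 in the panel of mixture against old control, and none in the other panels.

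The median log2 difference of the 26 was 0.02 between old and young controls, where that of all probe sets was -0.05. In the mixture against old controls these medians were 0.09 and 0.03. Groups did not overlap for 5 of the 26 between old and young controls, where 14.3% of all probe sets did not. For the mixture against old controls it was 6 of the 26, against 5.72% of all. Between the mixture and α-tocopherol it was 0 of the 26, against 1.2% of all. When the arrays were rescaled to equal medians, the median of all probe sets moved from -0.05 to 0.09 in the age comparison, and 8 of the 26 were then higher and 1 lower, in place of 2 and 3. Across the array, 4699 of 5562 passing probe sets were then higher, in place of 2520 of 5097. For the mixture against old controls, the same rescaling gave 1 higher and 4 lower of the 26, in place of 3 and 1, and 94 of 956 higher over the array, in place of 350 of 970. With the β-actin ratio in the model none of the 27022 passed for the mixture. That ratio ran from 1.216 to 1.596 with the mixture and from 1.727 to 2.524 in old controls. Group and ratio can therefore hardly be told apart in this model.

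Hspa5 encodes BiP, the Hsp70 chaperone of the ER lumen that also holds the stress sensors inactive. Its probe set 2 (1427464_s_at) gave signals of 5860, 5552, 5521, 5776 and 6437 in the 5 young controls and of 4010, 4825, 4748, 4089 and 4066 in the old controls. Every old control lay below every young one. The α-tocopherol mice gave 5057, 4686, 4143, 4128 and 4590, and the mixture mice 6414, 6324, 4402, 5227 and 4718. The α-tocopherol signals stayed below those of the young mice, while those with the mixture spread from the old level to that of the young. The log2 difference of old from young controls was -0.42 ± 0.10 (SE), an adjusted p of 0.00403 in limma, and with the medians set equal it was -0.29 with an adjusted p of 0.0774. With the mixture the difference from old controls was 0.30 ± 0.10, an adjusted p of 0.0717 in limma. Without mixture mouse 3, the lowest of its group, it was 0.38 with an adjusted p of 0.0313. The probe set passed for this comparison in no other alternative.

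The brightest probe set of Hspa5 did not follow that pattern. Its signals were 12607 to 14928 in young controls and 10499 to 19474 in old controls, the highest being old control mouse 3. The 95% interval of their log2 difference, -0.31 to 0.23, includes 0. Probe set 3 gave -0.07 ± 0.10 for the same comparison. Letters in the manufacturer's names mark probe sets 2 and 3 as able to match further transcripts, as they do probe set 1 of Canx, 2 and 3 of Calr, 1 and 3 of Xbp1, 2 of Atf4 and 2 and 4 of Dnajc3. The deviations from the group means of probe sets 1 and 2 correlated over the 20 arrays with a Pearson's r of 0.49, and those of 1 and 3 with 0.06. A lower Hspa5 in old mice was thus seen on 1 of its 3 probe sets.

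Hsp90b1 encodes GRP94, the Hsp90 chaperone of the ER, and its promoter holds both matches shown above. Neither of its probe sets passed in any comparison. Probe set 1 gave 8254 to 10143 in young controls, 7962 to 9407 in old controls, 7548 to 9419 with α-tocopherol and 6890 to 9146 with the mixture. All these ranges overlap. Intervals of the log2 difference between old and young controls were -0.26 to 0.08 on probe set 1 and -0.25 to 0.22 on probe set 2. For the mixture against old controls they were -0.27 to 0.07 and -9.4e-05 to 0.46.

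Canx and Calr encode calnexin and calreticulin, the membrane-bound and the soluble lectin that hold newly made glycoproteins in the ER until they are folded. Canx probe set 1 (1415692_s_at) gave signals of 8030, 5996, 7151, 6083 and 3748 in the young controls. The old controls gave 8642, 9914, 9853, 10334 and 10353. Every old control was above every young one, and young mouse 5 stood lowest. Signals with α-tocopherol were 10827, 9746, 9952, 10141 and 9264, and with the mixture 9144, 9298, 9294, 9230 and 7922. Both supplemented groups overlapped the old controls. The difference of old from young controls was 0.70 ± 0.13 on the log2 scale, a fold of 1.63 and an adjusted p of 0.000907 in limma. It passed in each of the 22 alternatives run, with values from 0.53 to 0.84.

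Canx probe set 2 (1422845_at) gave 1549, 1059, 1277, 844.5 and 687.5 in young controls and 1170, 1815, 1539, 1636 and 1782 in old controls. Old control mouse 1 fell among the young ones and young mouse 1 among the old ones, so the groups overlap. With α-tocopherol the signals were 1617, 1970, 1679, 1678 and 2046, and with the mixture 1900, 2410, 1764, 1908 and 2348. The age difference was 0.59 ± 0.16, an adjusted p of 0.016 in limma, and without young mouse 5 it was 0.44 with an adjusted p of 0.0526. These 2 probe sets of Canx derive from the same source sequence in the annotation, and their deviations correlated with an r of 0.69. Probe set 3 of Canx did not share the difference, at 0.08 ± 0.10 between old and young controls, with signals of 484.9 to 602.8 and 510.9 to 665.2.

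**Figure D2:**
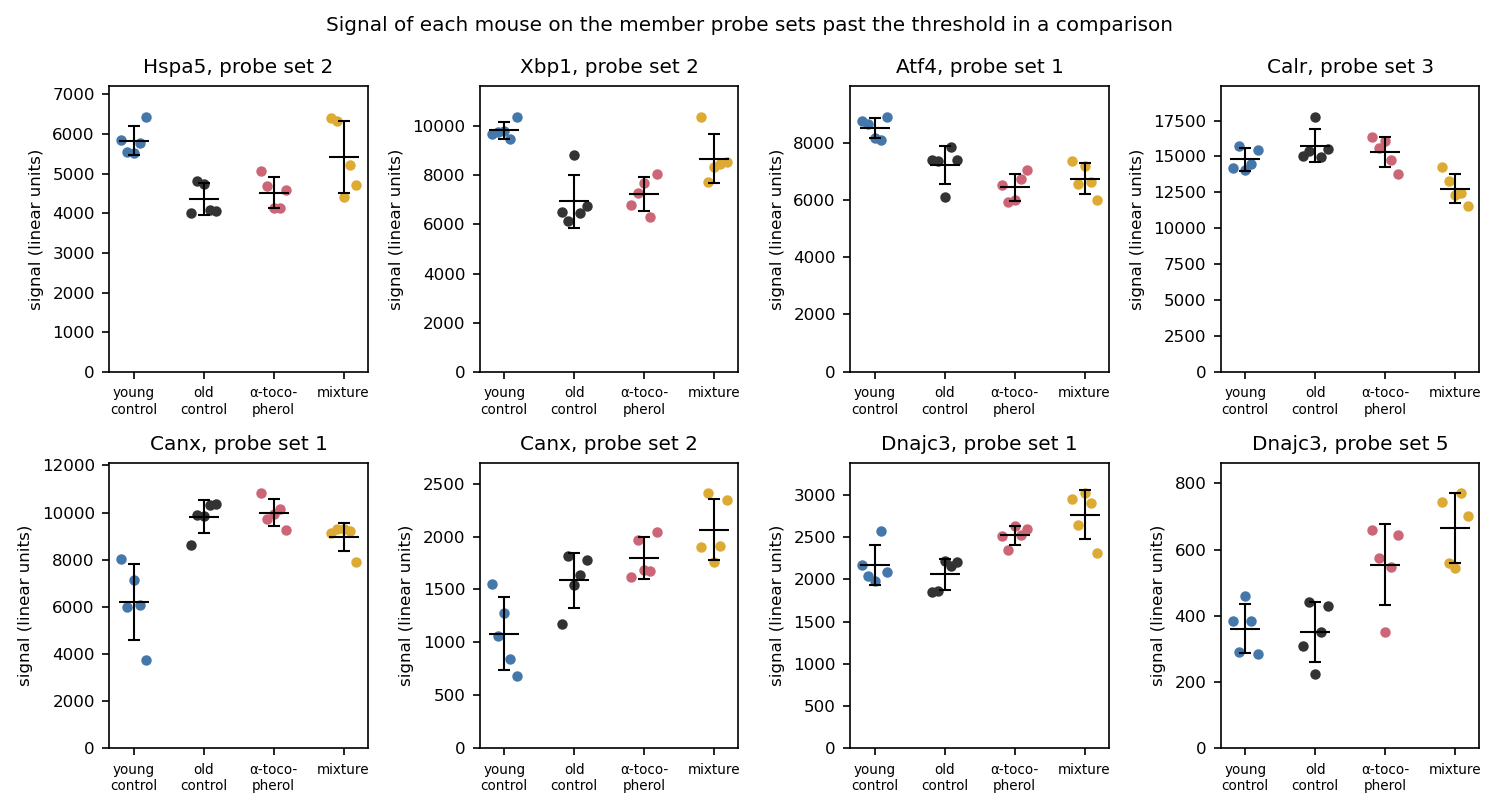
Linear signal (y axes) of each of the 5 mice per group (points), with the mean and SD of the group (bars), for the 8 probe sets past the threshold in a comparison. Old controls lie below all young controls on Hspa5 probe set 2, Xbp1 probe set 2 and Atf4 probe set 1 and above them on Canx probe set 1, and mixture mice lie above all old controls on both probe sets of Dnajc3.

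Calr gave lower signals with the mixture on all 3 of its probe sets, 1 of which passed. Probe set 3 (1456170_x_at) gave 15049, 15388, 17770, 14961 and 15547 in the old controls and 14249, 13282, 12318, 12461 and 11512 in the mixture mice. No mixture mouse reached an old control. In young controls it gave 14222, 15743, 14020, 14466 and 15478, and with α-tocopherol 16363, 15551, 16048, 14733 and 13772. Both of those groups overlapped the old controls. The difference of mixture from old controls was -0.30 ± 0.07, an adjusted p of 0.0181 in limma. Probe sets 1 and 2 gave -0.23 ± 0.07 and -0.23 ± 0.06 with adjusted p-values of 0.0581 and 0.0504, and in both the groups did not overlap either. Old control mouse 3 was the highest on all 3, with 19323 and 17952 on probe sets 1 and 2. Without that mouse the value on probe set 3 was -0.26 with an adjusted p of 0.055 in limma, and without mixture mouse 5 it was -0.27 with 0.0608. Quantile normalization gave -0.14 with an adjusted p of 0.166, cyclic loess -0.15 with 0.166, and a fit of the 2 groups alone -0.30 with 0.051. The probe sets of Calr tracked each other more closely than those of the other genes, with r from 0.78 to 0.89.

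With age, Calr was above all young controls on probe set 1, at 16160 to 19323 against 14734 to 15803, for a difference of 0.18 ± 0.07 and an adjusted p of 0.0657 in limma. It passed with medians set equal (0.32, adjusted p of 0.00613) and in the fit of those 2 groups alone (0.18, adjusted p of 0.0471). On probe sets 2 and 3 the groups overlapped, with differences of 0.13 ± 0.06 and 0.09 ± 0.07. Quantile normalization, cyclic loess and the model with the β-actin ratio turned the sign of probe set 3.

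Dnajc3 encodes P58IPK, a co-chaperone of BiP that has also been described as an inhibitor of PERK, and it was the gene with the most probe sets. Probe set 1 (1433887_at) gave 1854, 1863, 2222, 2154 and 2208 in the old controls and 2952, 2639, 3020, 2898 and 2317 in the mixture mice. Every mixture mouse was above every old control. With α-tocopherol the signals were 2514, 2346, 2626, 2522 and 2593, also above all old controls, and in young controls 2167, 2043, 1986, 2577 and 2086. The difference of mixture from old controls was 0.42 ± 0.09, a fold of 1.34 and an adjusted p of 0.013 in limma. With medians set equal it was 0.34 with an adjusted p of 0.0564. For α-tocopherol the difference was 0.29 ± 0.09, an adjusted p of 0.883 in limma and an unadjusted p of 0.00232. In that comparison 0.707% of all probe sets had groups that did not overlap, and this was the 1 of the 26.

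On probe set 5 of Dnajc3 (1449373_at) the old controls gave 307.9, 442.5, 225.2, 350.8 and 430.6 and the mixture mice 745.1, 558.8, 545.1, 770.9 and 701.9. The groups again did not overlap. Young controls gave 385.7, 291.0, 459.7, 385.8 and 285.7, at the level of the old controls, and α-tocopherol mice 658.9, 575.1, 351.6, 546.7 and 643.3. Mouse 3 of the α-tocopherol group alone fell within the range of the old controls. The log2 difference of mixture from old controls was 0.91 ± 0.19, a fold of 1.88 and an adjusted p of 0.0131 in limma. Quantile normalization gave 0.85 with an adjusted p of 0.0539. For α-tocopherol it was 0.64 ± 0.19, an adjusted p of 0.883. Between the mixture and α-tocopherol the intervals were -0.05 to 0.30 on probe set 1 and -0.12 to 0.66 on probe set 5, and neither passed.

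The other 3 probe sets of Dnajc3 gave differences of mixture from old controls of 0.30 ± 0.14, 0.08 ± 0.12 and 0.35 ± 0.15, on probe sets 2, 3 and 4, with adjusted p-values in limma of 0.227, 0.75 and 0.172. All 5 estimates were above 0 and 2 passed. Probe set 4 differed over the 4 groups as a whole (limma F-test, adjusted p of 0.00989), running from 435.4 to 701.3 in young controls, 603.2 to 927.2 in old controls and 804.8 to 1152 with the mixture. Within groups the r between probe sets of this gene ran from -0.30 to 0.54, the highest being that of probe sets 1 and 2. Probe sets 2 to 5 derive from 1 source sequence but hardly tracked each other, with r from -0.17 to 0.215. With the β-actin ratio in the model, the mixture differences of probe sets 1 and 5 were 0.52 and 0.72, with adjusted p-values of 0.512 and 0.792.

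Pdia4 encodes ERp72, a disulfide isomerase of the ER. Its probe set 1 gave 268.1, 319.2, 401.2, 406.1 and 393.2 in young controls and 463.9, 487.2, 480.2, 396.4 and 416.3 in old controls. These groups overlap. With α-tocopherol it gave 433.4 to 779 and with the mixture 446.5 to 613.5, all above the highest young control. Over the 4 groups it differed (limma F-test, adjusted p of 0.0184), while the difference of old from young controls was 0.33 ± 0.15 with an adjusted p of 0.128. That adjusted p was 0.0318 with medians set equal and 0.0485 after quantile normalization, and the age difference passed in no other alternative.

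**Figure D3:**
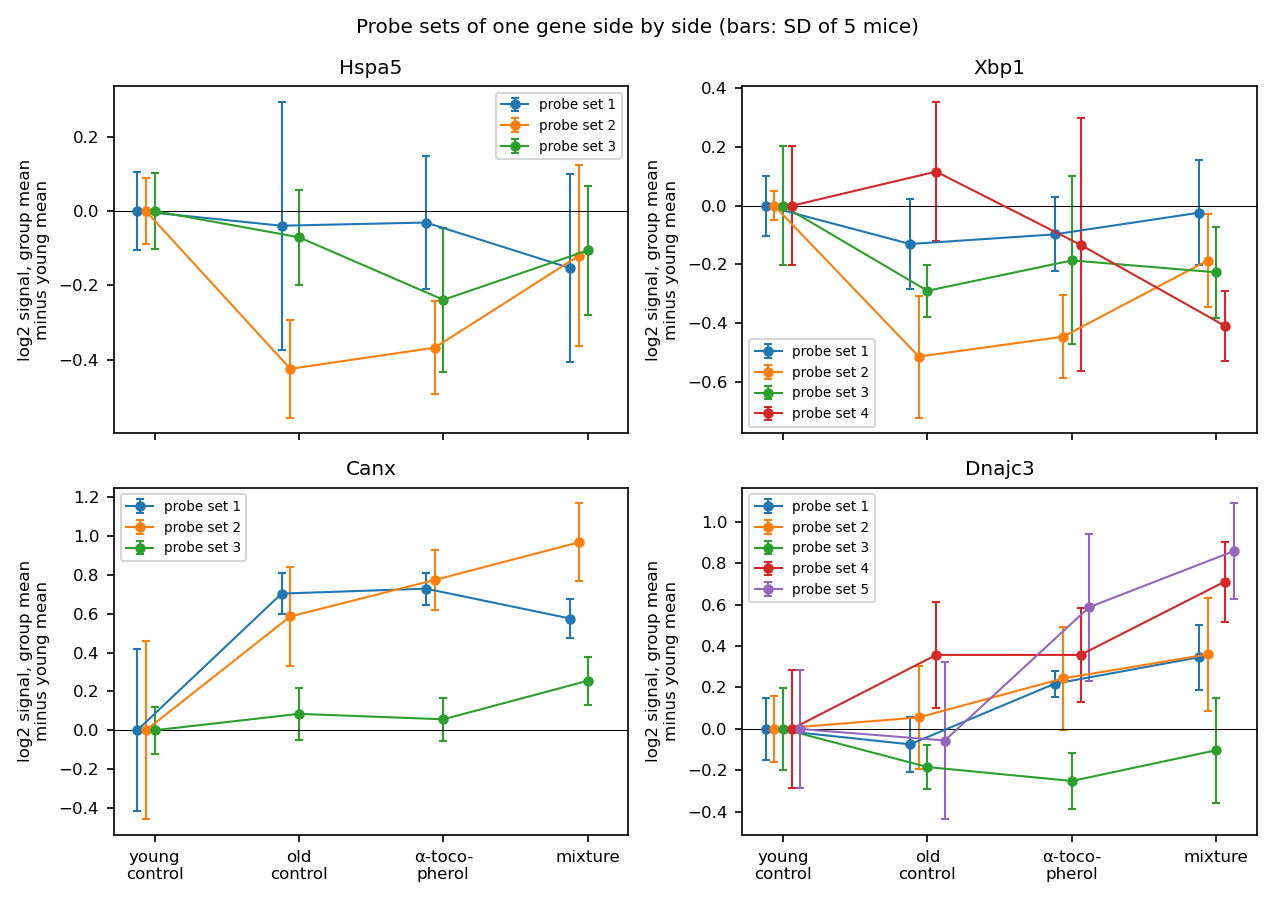
Group means of log2 signal minus the mean of the young controls (y axes), with SDs of 5 mice as bars, for each tested probe set of Hspa5, Xbp1, Canx and Dnajc3 across the 4 groups (x axes). Probe set 2 stands apart from probe sets 1 and 3 of Hspa5 in old controls, and probe sets 1 and 2 stand apart from probe set 3 of Canx.

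Xbp1 encodes the transcription factor that IRE1 activates by splicing its transcript. Probe set 2 (1420886_a_at) gave signals of 9669, 9774, 9816, 9487 and 10387 in young controls and of 6520, 6121, 8828, 6448 and 6756 in old controls. Every old control lay below every young one, and old control mouse 3 came closest to them. With α-tocopherol they were 6803, 7274, 7704, 6312 and 8072, and with the mixture 10355, 7709, 8321, 8452 and 8523. All α-tocopherol mice lay below the young controls, and 4 of the 5 mixture mice lay above those old controls other than mouse 3 and below the young. The age difference was -0.51 ± 0.09, which is 1.43-fold lower, with an adjusted p of 0.000738 in limma. It passed in all 21 alternatives run, with values from -0.60 to -0.38. Against old controls the mixture gave 0.33 ± 0.09, an adjusted p of 0.0464 in limma, and this call was lost in 13 of 21 alternatives, in which the adjusted p ran up to 0.792. Among these were 8 fits without 1 mouse, old control 1, 2, 4 or 5 or mixture 1, 3, 4 or 5, with adjusted p-values from 0.0546 to 0.101. Without old control mouse 3 the value was 0.42 and the adjusted p 0.0281.

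The remaining probe sets of Xbp1 gave other values. Probe sets 1 and 3 were -0.13 ± 0.09 and -0.29 ± 0.11 in old against young controls, with adjusted p-values of 0.306 and 0.0784 in limma. Probe set 1 passed after quantile and cyclic loess normalization and with the β-actin ratio in the model, at -0.23, -0.24 and -0.32, and probe set 3 passed with the ratio at -0.48. Probe set 4, the dimmest, gave 1246, 1148, 1132, 1213 and 1701 in old controls and 851.6, 769.5, 942.1, 939.8 and 904.4 with the mixture. No mixture mouse reached an old control, and the direction is opposite to that of probe set 2. The difference was -0.53 ± 0.16, an adjusted p of 0.0622. Probe sets 2 and 4 ran against each other within groups as well, with an r of -0.32. Probe sets 3 and 4 share a source sequence and correlated with an r of 0.29.

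Atf4 encodes the transcription factor whose translation rises when PERK phosphorylates eIF2. Its probe set 1 (1448135_at) gave 8733, 8659, 8172, 8102 and 8903 in young controls and 7381, 7351, 6098, 7851 and 7399 in old controls. The groups do not overlap, and old control mouse 3 was the lowest. With α-tocopherol the signals were 6520, 5916, 6001, 6729 and 7034, and with the mixture 7340, 6565, 7192, 6622 and 5990. Both supplemented groups lay below all young controls. The age difference was -0.24 ± 0.07, an adjusted p of 0.0223 in limma. It missed the threshold with medians set equal (-0.10, adjusted p of 0.503), with the β-actin ratio in the model (-0.21, 0.152), without young mouse 5 (-0.23, 0.0527) and without old control mouse 3 (-0.18, 0.067). Probe set 2 gave 0.14 ± 0.14 with age, opposite in sign, although the deviations of the 2 probe sets correlated with an r of 0.64. With the mixture against old controls, probe set 2 was at -0.41 ± 0.14, an adjusted p of 0.0988.

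Atf6, the membrane-bound sensor, and Ddit3, which encodes CHOP, passed in no comparison. Atf6 probe set 1 gave 1471 to 1941 in young controls, 1523 to 1972 in old controls, 1510 to 2051 with α-tocopherol and 1853 to 2035 with the mixture, all overlapping. Its probe set 2 gave 0.35 ± 0.13 with the mixture against old controls, an adjusted p of 0.11 in limma. Ddit3 probe set 1 gave 1866, 1566, 1491, 1844 and 1506 in young controls and 1886, 1703, 2017, 1962 and 1895 in old controls. With α-tocopherol it gave 1722, 1568, 1618, 1535 and 1506, and with the mixture 1639, 1908, 1359, 1652 and 1434. Old control signals were the highest on the whole, but all neighbouring groups overlap. The differences were 0.20 ± 0.09 for old against young controls, and -0.25 ± 0.09 for each supplement against old controls. Adjusted p-values in limma were 0.129, 0.883 and 0.119 in that order, and 0.0253 for age with medians set equal. No other alternative brought Ddit3 past the threshold. The interval between the supplements was -0.19 to 0.19.

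Over all 4 groups, 11 of the 26 probe sets differed (limma F-test), against 21.4% of all probe sets. How narrowly the arrays bound a difference can be read from the 95% intervals. They lay within 1.5-fold either way for 20 of the 26 in old against young controls and for 25 in α-tocopherol against old controls. With the mixture it was 18 against old controls and 23 against α-tocopherol.

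Genes of neighbouring steps were counted in the same way, over lists of the pathway that were, like the 10 genes, chosen with earlier results of these data known. Of all probe sets, 9.33% were higher and 9.54% lower in old than in young controls. For the mixture against old controls these shares were 1.3% and 2.29%, and 3.59% passed in either direction. The few mixture calls in the lists below are to be read beside these shares. A gene named here passed on the probe set whose value is given, and its other probe sets are given by their counts and range. In a list of stress sensors, the proteases that activate ATF6 and some related genes, 4 of 17 probe sets were higher in old than in young controls and none was lower. They were Atf6b, a relative of ATF6 (0.47 ± 0.10), Mbtps1, the first protease that cuts ATF6 (0.21 ± 0.06, 1 of its 2 probe sets), Tmbim6 and Nfe2l1. Neither sensors nor such proteases are Tmbim6, an ER membrane protein that restrains IRE1 (0.25 ± 0.06), and Nfe2l1 (0.32 ± 0.08). With medians set equal 8 of the 17 were higher and with the β-actin ratio in the model 2, and none was lower in either. With medians set equal, 4699 of the 5562 calls of the whole array were higher. That shift lies in every such count of the lists below as well. The Hsp70 and Hsp40 system of the lumen had 2 of 21 higher and 2 lower. Sec63, a partner of BiP at the translocon, was higher at 0.48 ± 0.10 on 1 of its 5 probe sets, with the others from -0.19 to 0.08. Hyou1, a nucleotide exchange factor, was higher at 0.72 ± 0.23 on 1 of 2, and its other probe set was at -0.42 ± 0.16 with an adjusted p of 0.0778 in limma. Dnajb11, a co-chaperone of BiP, and Manf, a secreted factor induced by ER stress, were lower at -0.43 ± 0.11 and -0.30 ± 0.10. This list had 4 higher and none lower with medians set equal, and 1 and 2 with the β-actin ratio. Protein disulfide isomerases and oxidases had none of 27 past the threshold in limma as deposited, and 6 higher with medians set equal.

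Among these lists the largest share of calls in 1 direction was that of the glycoprotein folding cycle, in which Canx and Calr act: 10 of 32 probe sets were higher in old controls and 2 were lower, without those 2 genes. Rpn1 and Dad1, subunits of the oligosaccharyltransferase that attaches the sugar, were higher at 0.51 ± 0.09 and 0.61 ± 0.11 on their clearest probe sets, and passed on 4 of 5 and 2 of 2. Uggt1, the glucosyltransferase that returns unfolded glycoproteins to the lectins, was higher at 0.81 ± 0.14 on 1 of its 2, the other being at 0.07. Several of the 10 are probe sets of 1 gene, and they stand for 6 genes. These counts were 13 and 0 with medians set equal, 9 and 1 after quantile and 8 and 1 after cyclic loess normalization, and 3 and 0 with the β-actin ratio in the model. The median log2 difference of the list was 0.14, against -0.05 for all probe sets.

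**Figure D4:**
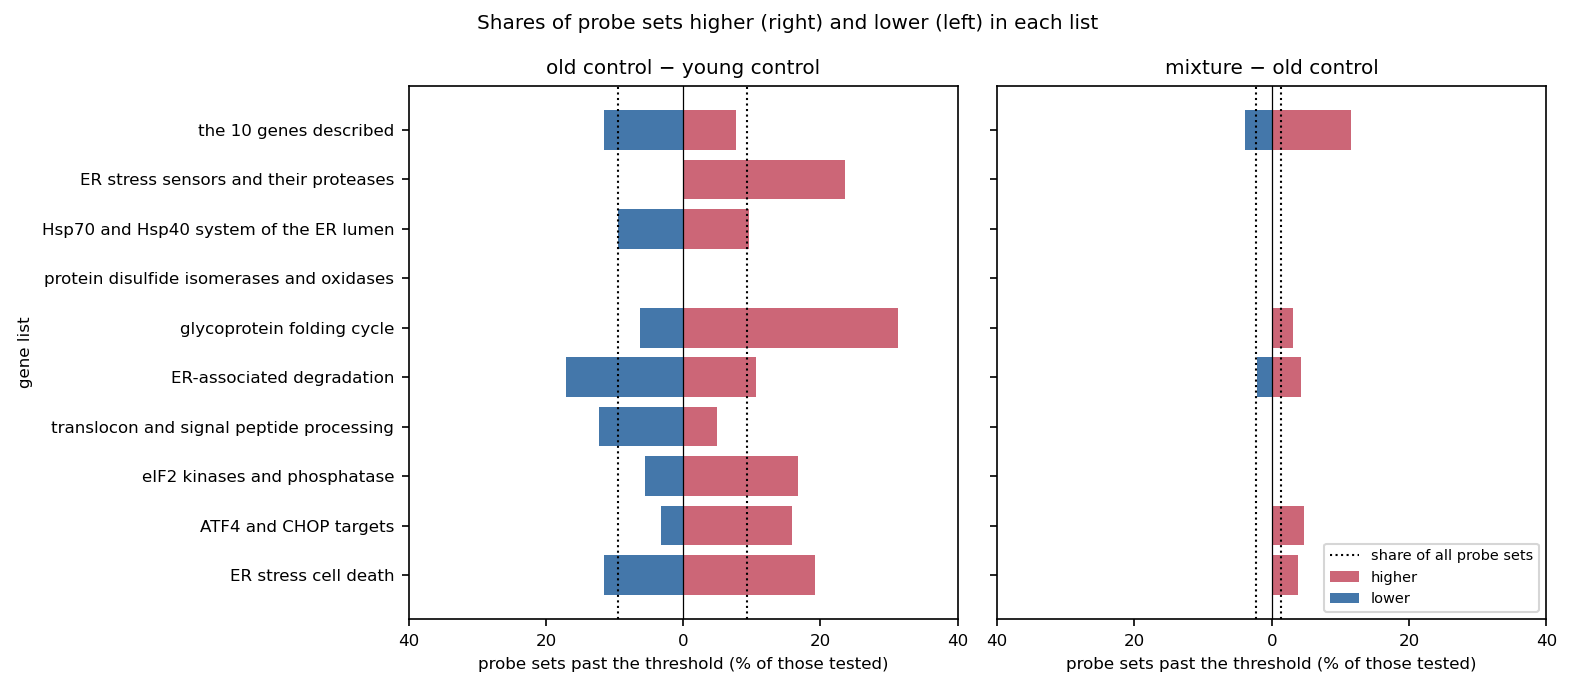
Share of tested probe sets of each list (y axis) past the threshold, higher to the right and lower to the left (x axes, percent), for old against young controls and for the mixture against old controls, with the shares of all probe sets as dotted lines. The glycoprotein folding cycle reaches 10 of 32 higher with age, and no list but the 10 genes has more than 3 probe sets past the threshold with the mixture.

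ER-associated degradation, which returns misfolded proteins to the cytosol for the proteasome, had 5 of 47 probe sets higher and 8 lower in old controls. Herpud1, a scaffold of the retrotranslocation complex, was lower at -0.40 ± 0.07 and on both of its probe sets. Syvn1, its ubiquitin ligase, was at -0.56 ± 0.11 on 1 of 2, and Sel1l, the partner of that ligase, at -0.43 ± 0.10 on 1 of 5, the others reaching 0.18. Ube2j1, a ubiquitin-conjugating enzyme, was higher at 0.38 ± 0.08 on 1 of 2. With medians set equal the counts were 8 higher and 4 lower, and with the β-actin ratio 1 and 4. With the mixture against old controls, Sel1l was higher at 0.39 ± 0.10 and Derl1 at 0.37 ± 0.09, and Selenos was lower at -0.29 ± 0.07 (adjusted p in limma of 0.0323, 0.0319 and 0.0299). Each passed on 1 probe set, of 5, 4 and 3, and each of the 3 genes had at least 1 other probe set with the opposite sign. However, none of the 47 was higher and none lower after quantile normalization. The translocon and signal peptide processing had 2 of 41 higher and 5 lower with age, among them 2 of the 3 probe sets of Ssr4, a subunit of the translocon-associated complex, at -0.52 ± 0.08 and -0.67 ± 0.13. With medians set equal 6 were higher and 3 lower, and with the β-actin ratio 1 and 2.

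In a list around eIF2, the target of PERK, 3 of 18 probe sets were higher with age and 1 was lower. The list holds eIF2 kinases, phosphatase and exchange factor and also Dnajc2, which is none of these. The lower probe set was that of Dnajc2, at -0.39 ± 0.11, 1 of its 3. The higher ones were of Eif2b2, Eif2b4 and Eif2ak1, an eIF2 kinase other than PERK. Eif2b2, a subunit of the exchange factor, was at 0.34 ± 0.06 on 1 of 3 probe sets, the lowest of the others being at -0.26, and the list's median was -0.16. The counts were 3 and 0 with medians set equal, and 1 and 0 with the β-actin ratio. Known targets of ATF4 and CHOP had 10 of 63 higher and 2 lower, 16 and 1 with medians set equal and 7 and 1 with the β-actin ratio. The 10 stand for 5 genes. Ndrg1 was higher on 3 of its 5 probe sets, at 0.67 ± 0.12 on the clearest. Eif4ebp1, which restrains translation, stood at 1.44 ± 0.23, with signals of 330.9 against 112.3, and passed on 2 of 3 probe sets. The lowest of the 3 was at 0.02, and the young level of 112.3 lies below the filter's signal of 184. Wars, a transfer RNA synthetase, was at 0.55 ± 0.09 on 1 of 4, the lowest of the others being at -0.15. Stc2, a secreted glycoprotein, was lower at -0.63 ± 0.11 on 1 of 2. With the mixture against old controls 3 of the 63 were higher, for Psat1 (0.30 ± 0.07), an enzyme of serine synthesis, Gpt2 (0.66 ± 0.18), an aminotransferase, and Wars on another probe set (0.29 ± 0.08), and 1 after quantile normalization. Psat1 passed on 1 of 2 probe sets and Gpt2 and Wars on 1 of 4 each, the lowest of the others being at -0.10 and -0.14. Genes of cell death under ER stress had 5 of 26 higher and 3 lower with age, 3 of the higher ones being among the 6 probe sets of the anti-apoptotic Mcl1, 2 of them at 0.60 ± 0.10 and 0.54 ± 0.10 and the lowest of the 6 at -0.22. Map3k5, a stress kinase, was higher at 0.40 ± 0.08 on 1 of 2, and Mapk8 lower at -0.64 ± 0.13 on 1 of 5. The counts became 6 and 1 with medians set equal, and 3 and 2 with the β-actin ratio. None of these 9 lists had a probe set past the threshold for α-tocopherol against old controls or for the mixture against α-tocopherol.

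Besides the 9 promoters, the table held those of 119 other genes of these lists. The ER stress response element lay in 5 of the 119, those of Creld2, Derl3, Ero1b, Pdia6 and Syvn1. Between old and young controls, 2 of the 25 tested probe sets of all 10 genes with the element were higher and 2 lower, and of the 229 probe sets of genes without it 31 were higher and 22 lower. For the mixture against old controls it was 2 higher and 1 lower of 25, against 6 and 1 of 229. Of all probe sets on the array, 18.9% passed with age and 3.59% with the mixture. With the mixture, the calls among genes with the element were those of Dnajc3 and Calr already given. None was of the other 5 genes, so these counts add no further gene. Among the 5 genes printed above, Hspa5 was lower on 1 of 3 probe sets and Canx higher on 2 of 3 with age. With the mixture Dnajc3 was higher on 2 of 5 and Calr lower on 1 of 3, and Hsp90b1 passed in neither comparison.

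To see which genes varied alike from mouse to mouse, deviations from the group means were correlated over the 20 arrays on the brightest probe set of each gene. All arrays share the same scaling, so part of any such likeness may be common to many genes. Of 13350 other genes, those most like Hspa5 were Ndufb8 (Pearson's r of 0.92, Spearman's rho of 0.85), Slc2a3 (0.91 and 0.89), Uqcrb (0.90 and 0.86), Xbp1 (0.87 and 0.85) and Hsph1 (0.87 and 0.76). Without the 2 arrays farthest from the median of Hspa5, old control mouse 3 and α-tocopherol mouse 1, these r were 0.84, 0.87, 0.80, 0.83 and 0.78. Those 2 arrays had the highest β-actin ratios of the 20, at 2.524 and 2.36. The part of RNA quality in the likeness of these genes was not tested. Xbp1 and Calr correlated with an r of 0.84 and Hspa5 and Calr with 0.73. Hspa5 and Hsp90b1, the 2 lumenal chaperones, were at 0.07. However, the 2 probe sets of Hsp90b1 correlated with each other at only 0.05, and the 2 tested ones of Atf6 at 0.05. Hspa5 probe set 1 followed its own probe sets 2 and 3 at 0.49 and 0.06, less closely than it followed Xbp1. These r therefore describe single probe sets, and another probe set of the same gene can give another value.

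**Figure D5:**
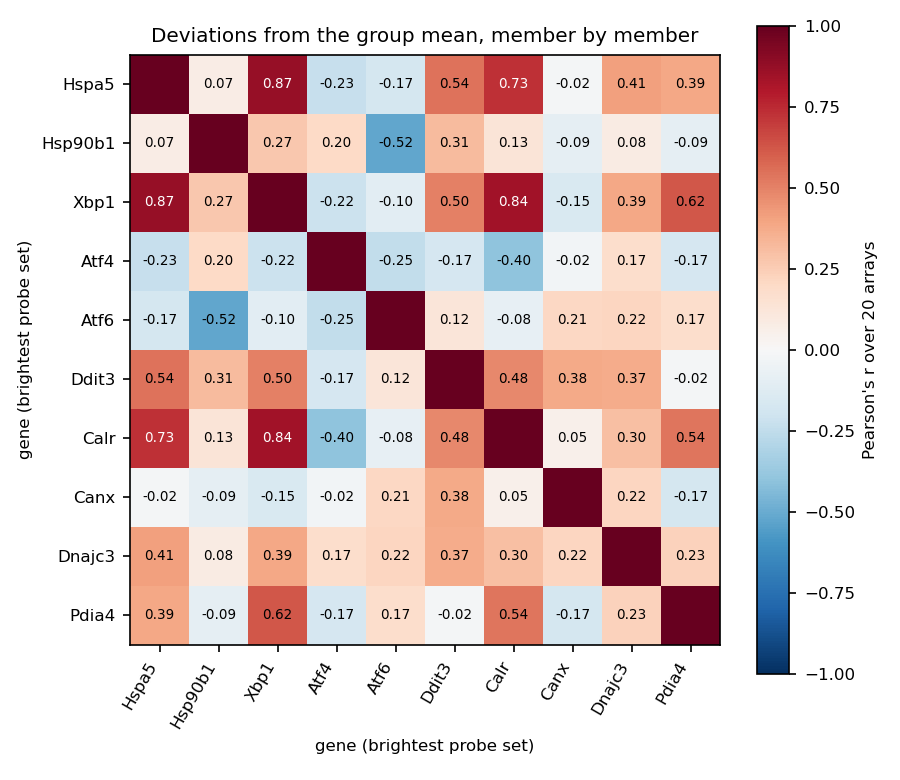
Pearson's r over 20 arrays (colour) between the deviations from group means of the brightest probe sets of each pair of the 10 genes (both axes). Hspa5, Xbp1 and Calr form the block of highest values, from 0.73 to 0.87, and Hsp90b1 with Atf6 has the lowest, -0.52.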

How the data were processed

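Neocortical poly(A) RNA of 20 mice was measured on Affymetrix arrays, 1 per animal, so a p-value reflects how animals differ. For each probe set the authors deposited a linear signal intensity, made with GCOS per the submitters' processing notes, with no version. The 2% trimmed mean was 1000 on every array: the intensity values were scaled before deposit, and a shift of all messenger RNA in 1 direction cannot be seen. For the background and summary steps, the method is not stated in the labels.

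Affymetrix controls (64) were left out. Of 45037 other probe sets, 34945 had 1 gene symbol, 932 several and 9160 none, and 34754 were matched by gene identifier to RefSeq. The top 60% by mean log2 signal, above a signal of 184, were tested on log2(signal + 16) with limma 3.58.1 in R 4.3.3 (lmFit over all 20 arrays, eBayes with trend, two-sided, Benjamini-Hochberg over 27022 probe sets, threshold 0.05), a procedure tested on simulated data. No 2 arrays were identical. The number of arrays limits the precision. The 10 genes and all lists were chosen with earlier results of these data known. Every probe set of the 10 genes is covered, from each list at most 4 past the threshold with the smallest p were named, and likeness names the 5 genes closest to Hspa5. Alternatives were 2 other pseudocounts, 2 filters, 3 scalings, brightest probe sets, 2 groups alone, no trend, a replicate block, the β-actin ratio as covariate and leaving out each mouse. Nars1 and several other list genes were not matched and not analysed here.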

Additional observations from a re-analysis of the deposited data

Results flagged for a closer look

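Of 120 sets of 5 signals (30 probe sets in 4 groups), 8 held a mouse whose gap to its nearest neighbour, as a share of the group's range on the log2 scale, passed the critical value for 5 samples. Chance gives about 1 in 20. Old control mouse 3 accounted for 3 of them. On Xbp1 probe set 2 it had 8828 against 6121 to 6756 in the others (gap share 0.731), on Calr probe set 3 it had 17770 against 14961 to 15547 (0.777), and on Atf4 probe set 1 it was lowest with 6098 against 7351 to 7851 (0.74). Its β-actin ratio, 2.524, was the highest of the 20 arrays. On Canx probe set 1, old control mouse 1 was lowest with 8642 against 9853 to 10353 (0.726), and mixture mouse 5 was lowest with 7922 against 9144 to 9298 (0.896). Xbp1 probe set 4 was highest in old control mouse 5, with 1701 against 1132 to 1246 (0.765). Hspa5 probe set 3 was highest in mixture mouse 4, with 3295 against 2495 to 2572 (0.891), and Dnajc3 probe set 4 in α-tocopherol mouse 5, with 965.5 against 638.7 to 707 (0.755).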

How the results depend on the processing

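Among the 9 calls on single probe sets none changed sign under any alternative, and the age differences of Canx probe set 1 and Xbp1 probe set 2 passed in all of those run for them. The number of the 26 probe sets past the threshold in old against young controls was 5. It was 9 with array medians set equal and 2 with the brightest probe set of each gene, which tests 10 probe sets. For the mixture against old controls it was 4 (3 higher, 1 lower), 6 of 24 with the top 40% of probe sets (2 higher, 4 lower), 5 with array medians set equal, and 2 after quantile normalization, 2 with the brightest probe sets and 0 in the model with the β-actin ratio. Over the 4 groups it was 11, and 5 with the brightest probe sets. Leaving out 1 mouse gave 3 to 6 for age, 2 to 4 for the mixture against old controls, 9 to 13 over the 4 groups, and 0 to 0 for both comparisons with α-tocopherol. The cause of each shift was not tested, apart from the smaller number of probe sets where only the brightest were used. Of all probe sets, 970 passed for the mixture against old controls. That count was 133 with quantile normalization, 177 with cyclic loess, 492 without the filter, 1301 of 18015 with the top 40%, 1338 with the replicate block, 358 without the trend, 476 with the 2 groups alone, 0 with the β-actin ratio, 603 of 13351 with the brightest, 284 without old control mouse 3, 280 without mixture mouse 5, 435, 529 and 487 without old control mouse 4 or 5 or mixture mouse 4, and 657 to 971 without 1 of the others. For old against young controls it was 5097, 2028 with the ratio, 3039 with the brightest and 3883 to 4685 without 1 mouse. For the mixture against α-tocopherol it was 0, and 64 without α-tocopherol mouse 5.

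In a fit with replicate numbers as the block, 6, 0, 5 and 0 of the 26 passed in the 4 comparisons, and 10 over the 4 groups. The numbers were not taken as pairing the mice: deviations of same-numbered arrays had an r over 0.1 in 7 of 30 pairs (-0.11 to 0.203), and 7 of 20 arrays were most like their own number. The limits of these data are 5 mice a group, bulk tissue, scaling by the authors that fixes the array mean, RNA measures that differ between the groups and probe sets that may match further transcripts.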

Other observations

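The 4 probe sets below the filter were at brightness percentiles of 7.68 (Atf4), 23.2 (Ddit3), 28.3 (Pdia4) and 34.2 (Atf6). Atf4 probe set 3 gave 11.4 to 47.4 over the 20 mice, Pdia4 probe set 2 gave 31.3 to 215.8, Atf6 probe set 3 gave 52.3 to 239.7 and Ddit3 probe set 2 gave 21.2 to 267.5. In each of them the 4 groups overlapped.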
